A study of Homo sapiens with 9 samples.

Results

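RNA abundance in A549 cells given small interfering RNA (siRNA) against FAM210B was compared with that in cells given a negative control siRNA, 72 h after transfection. A549 is an established human line from a lung adenocarcinoma. Each group had 3 arrays, and 3 arrays of cells given siRNA against UQCRC2 completed the 9 of the study. Per the labels the siRNAs were mixtures, all groups were grown in the same medium and carried no other treatment, and the 3 arrays of a group are called biological replicates without a statement that the cultures were separate. The p-values therefore measure the spread between arrays, which may be technical. For each gene this spread, and so each standard error, was pooled over all 9 arrays, those of si-UQCRC2 included. The measurement is the deposited log2 signal of a whole-transcript array, so every level below is a log2 signal, every change is a difference of group means on the log2 scale (a difference of 1 is 2-fold), and ± is its standard error with n = 3 arrays a group. Members were all rows with exactly 1 gene symbol whose mean over the 9 arrays reached 4.25, the median of all row means. This held for 16863 of 67528 rows, and for genes with several such rows the row with the highest mean was kept, which left 15964 genes, 13445 of them protein coding. KCNQ1OT1, CLDN11 and MOG lay just inside that limit and SDC4P, RNA5SP502 and JAZF1-AS1 just outside it. Values of replicates are always given in the order 1, 2, 3, and no difference in level between rows is read as one in RNA abundance.

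FAM210B is a membrane protein of mitochondria, the organelles that burn pyruvate and fatty acids and build heme. In mouse erythroid cells it is known to take part in iron delivery for heme synthesis. A549 cells carry features of lung epithelium, with E-cadherin at their contacts, and they have a high level of enzymes that the transcription factor NRF2 controls, because its inhibitor KEAP1 is mutated in this line. The comparison asks which RNAs differ once FAM210B is targeted.

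The arrays of the si-FAM210B and control groups were uneven. A gene's SD over the 3 arrays of a group had a median of 0.130 in si-FAM210B, 0.0878 in the controls and 0.0379 in si-UQCRC2. The leading principal component carried 55.3% of the variance, and on it the array labelled si-FAM210B replicate 1 scored -33.2 while replicates 2 and 3 scored -0.908 and -8.39. Control replicate 3 scored -6.99, and the other controls scored 12.1 and 9.87. The total and the counts of the lists described below are therefore also given without these 2 arrays. All 13 line identity genes with a row (keratins 7, 8, 18 and 19 among them) lay above 4.25, and their summed linear signal was 19270 to 22810 in si-FAM210B and 23040 to 24280 in control. Of the immune markers with a row, 5 of 11 lay above 4.25, and CD3D, FCGR3A, HLA-DRA, LYZ, MS4A1 and PTPRC lay below it. Their summed linear signal was 541.9 to 607.5 in si-FAM210B and 391 to 423.9 in control, and without CD68 it was 169.5 to 195.0 and 165.0 to 170.8. Of the fibroblast markers with a row, 5 of 8 (COL1A1, COL1A2, PDGFRB, PDPN and THY1) lay above 4.25, and DCN, LUM and PDGFRA lay below it. The sum over the fibroblast list was 300.1 to 356.0 in si-FAM210B and 248.3 to 280.3 in control. Of the endothelial markers, 3 of 6 (CDH5, CLDN5 and VWF) lay above 4.25, and KDR, PECAM1 and TEK below it. The sum over the endothelial list was 153.8 to 175.6 in si-FAM210B and 145.2 to 165.1 in control. The part of other cells in the results was not tested.

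FAM210B itself read 6.48, 6.10 and 6.22 in si-FAM210B against 6.39, 6.46 and 6.48 in control. The array labelled si-FAM210B replicate 1 stood at the control level and the other two lay below all controls, so the groups overlapped. The change was -0.17 ± 0.09 (adjusted p = 0.238), and the exact two-sided permutation test over the 6 arrays gave p = 0.4, where 0.1 is the smallest value that 3 against 3 arrays can reach. Without si-FAM210B replicate 1 and control replicate 3 the change was -0.26 (adjusted p = 0.0211). Every direction below is thus that of the arrays labelled si-FAM210B. The paralog FAM210A read 6.61, 6.58 and 6.57 against 6.68, 6.77 and 6.72, a change of -0.13 with an exact p of 0.1 and an adjusted p of 0.145. UQCRC2, the core subunit of respiratory complex III that the other siRNA targets, read 9.25, 9.83 and 9.82 against 9.96, 9.84 and 9.70 (change -0.20, adjusted p = 0.35).

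At a Benjamini-Hochberg adjusted p under 0.05 in limma's test, 444 genes (2.78% of those tested) were higher and 558 (3.5%) lower in the arrays labelled si-FAM210B. In bulk RNA, fewer cells of a kind and less RNA per cell cannot be told apart. The changes were small: the median size of a called change was 0.37, only 134 called genes (0.839%) reached 1.5-fold, 60 higher and 74 lower, and 18 (0.113%) reached 2-fold. In none of the 1002 called genes did the 2 groups of arrays overlap, which was so for 24.0% of all genes tested. Without both deviating arrays 1792 genes (11.2%) were higher and 2097 (13.1%) lower, and these held 441 of the 444 and 553 of the 558. The higher genes made up 44.3% of the calls, 32.9% after median centring of the arrays (559 calls) and 55.5% after quantile normalization (960 calls). Leaving out 1 array gave 306 calls (without control replicate 2) to 1975 (without si-FAM210B replicate 2). A fit of the 2 compared groups alone, without the less variable si-UQCRC2 arrays in the spread, gave 227 calls (130 higher and 97 lower). The call survived every removal of 1 of the 9 arrays for 159 of the higher and 119 of the lower genes.

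The 20 protein-coding genes that rose the most did so by 0.82 to 1.70. They were GREM1, STC1, MT2A, TGFB1I1, TAGLN, PODXL, SPARC, ITGA11, EFR3B, NAV3, GLIPR1, NAV2, PLEK2, CCN2, AOX1, MT1H, MARCHF4, KIAA1549L, DOCK2 and DIO2. All 20 were also called without both deviating arrays, 15 of them with a larger change, and si-FAM210B replicate 1 was the array of its group closest to the controls in 13. For 19 the call held with each array left out, and DIO2 lost it without si-FAM210B replicate 3 or control replicate 1 (adjusted p from 0.0524 to 0.0538).

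**Figure D1:**
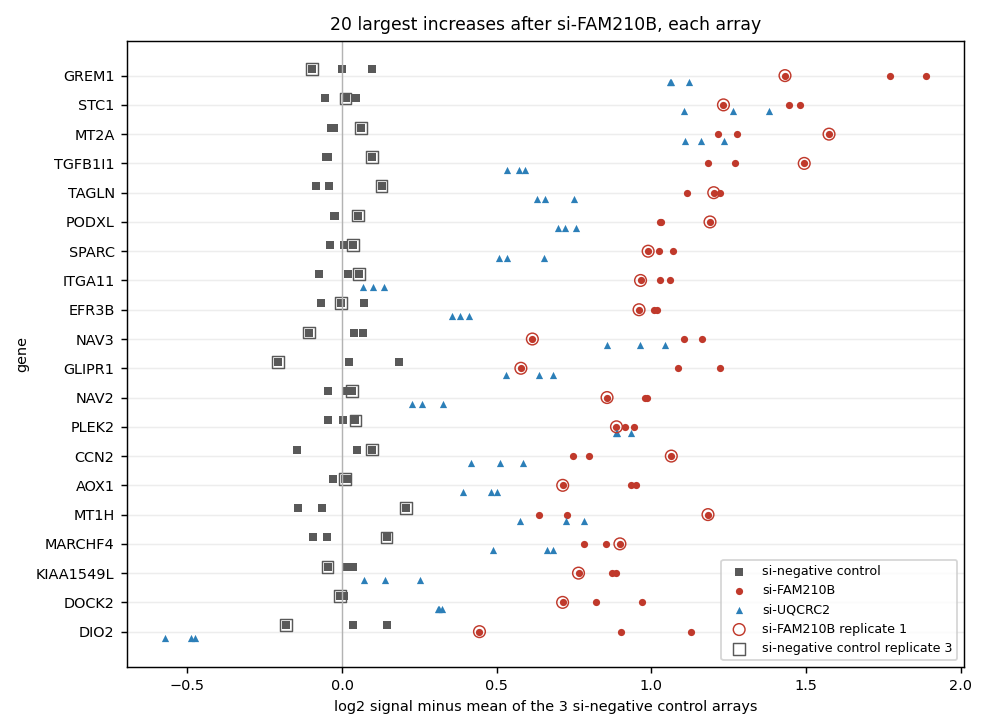
Log2 signal of each array minus the mean of the 3 control arrays (x axis) for the 20 protein-coding genes with the largest rise in si-FAM210B (y axis), with control as squares, si-FAM210B as circles and si-UQCRC2 as triangles, and with the 2 deviating arrays ringed. In each gene the 3 si-FAM210B points lie right of the 3 control points, and in 13 the ringed si-FAM210B replicate 1 is the one closest to the controls.

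The 20 that fell the most did so by 0.82 to 1.50. They were GPX2, TM4SF20, PDK4, INHBB, IFI30, PLA2G4A, CDH1, CYP4F11, SUSD2, SGPP1, PON3, HGD, NTRK3, CPS1, PTGS2, SLC2A3, MTUS1, SAT1, FGA and C5. In 19 of them si-FAM210B replicate 1 was the lowest array of its group, and the fall was larger without both deviating arrays in 2. PTGS2 lost its call without control replicate 1 or 2 (adjusted p from 0.0522 to 0.0533), and the other 19 kept theirs with each array left out.

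**Figure D2:**
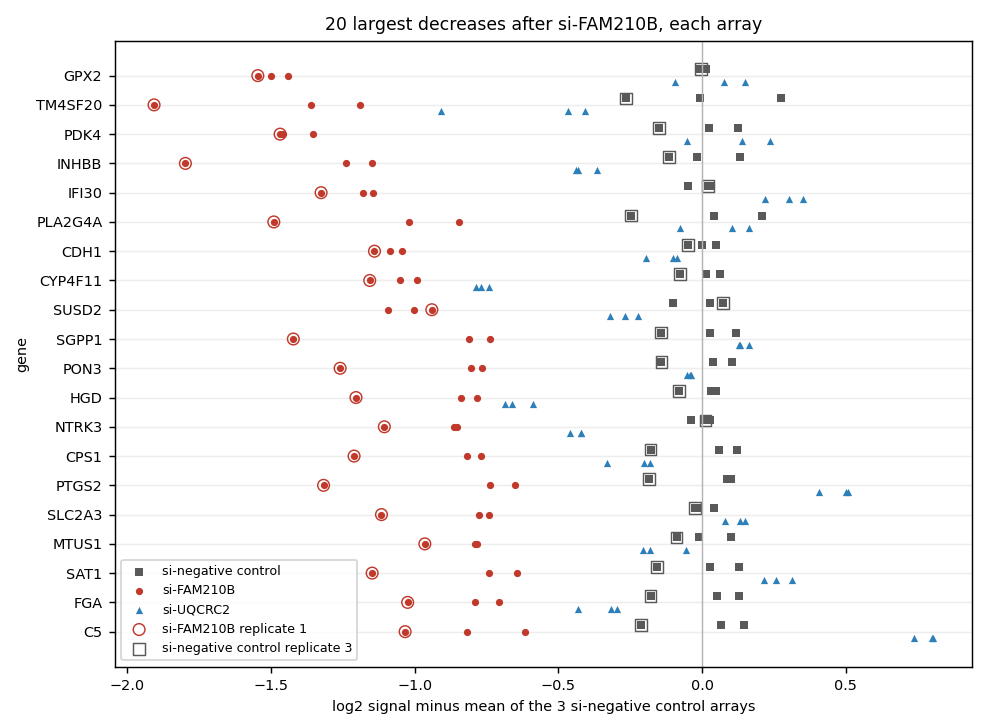
Log2 signal of each array minus the mean of the 3 control arrays (x axis) for the 20 protein-coding genes with the largest fall in si-FAM210B (y axis), with symbols for the 3 groups and rings for the 2 deviating arrays as in the legend. The 3 si-FAM210B points lie left of the controls in each gene, the ringed replicate 1 is the lowest in 19, and the si-UQCRC2 triangles of 3 genes were called below control.

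Antagonists of bone morphogenetic protein (BMP) and activin, secreted ligands of the transforming growth factor beta (TGF-beta) family, held the largest rise. GREM1, a secreted protein that binds and blocks BMPs, read 8.25, 8.59 and 8.71 in si-FAM210B against 6.82, 6.92 and 6.72 in control. All 3 si-FAM210B arrays lay above all controls, with replicate 1 the lowest of them, and the rise was 1.70 ± 0.11 (adjusted p = 2.67e-05), or 3.24-fold. FST, which binds activins, read 6.15, 6.31 and 6.41 in si-FAM210B against 5.56, 5.55 and 5.53 in control and rose by 0.74 ± 0.07 (adjusted p = 0.000535). INHBB, the activin beta B subunit, went the other way and read 6.18, 6.83 and 6.74 in si-FAM210B against 7.96, 8.11 and 7.87 in control. It fell by 1.40 ± 0.15 (adjusted p = 0.000711), to 38% of control on the linear scale, with replicate 1 the lowest array. Of 33 ligands and antagonists tested, 7 rose and 2 fell, with 4 to 8 and 1 to 2 when single arrays were left out and 11 and 2 without both deviating arrays. BMP1, a proteinase that trims procollagen, rose by 0.33 ± 0.05 (adjusted p = 0.00573). GDF15, a stress-induced ligand, fell by 0.62 ± 0.15 (adjusted p = 0.0398) and was not called without si-FAM210B replicate 2 or 3, control replicate 2 or 3 or any 1 si-UQCRC2 array (adjusted p from 0.0536 to 0.133).

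Downstream of these ligands, the receptors, SMAD proteins and response genes held 5 rises and 6 falls of 41 (3 to 9 and 3 to 7 with single arrays left out). ID1, a BMP target that blocks differentiation factors, read 8.85, 8.73 and 8.72 in si-FAM210B against 9.24, 9.37 and 9.40 in control and fell by 0.57 ± 0.07 (adjusted p = 0.00128). SMAD6, an inhibitor of BMP signalling that BMP itself induces, read 7.21, 7.08 and 7.05 in si-FAM210B against 7.63, 7.68 and 7.63 in control and fell by 0.54 ± 0.06 (adjusted p = 0.000862). TGFBR3, a co-receptor, fell by 0.46 ± 0.06 (adjusted p = 0.00183). In these 3 genes replicate 1 was the si-FAM210B array closest to the controls, and the groups did not overlap. CCN2, a matrix-associated protein that TGF-beta and the YAP coactivator both induce, read 8.33, 8.07 and 8.02 in si-FAM210B against 7.12, 7.32 and 7.37 in control and rose by 0.87 ± 0.10 (adjusted p = 0.000995). Without both deviating arrays the 2 directions held 13 and 9 members.

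Genes of the contractile apparatus and of focal adhesions, where actin bundles meet the matrix, were, of the lists reported, the one with the most rises called. Of 48 tested 14 rose and 2 fell, with a median change of 0.19 against 0.03 over all genes. TGFB1I1 (Hic-5), an adaptor of focal adhesions, read 9.47, 9.25 and 9.16 in si-FAM210B against 7.92, 7.93 and 8.07 in control. TAGLN (transgelin), which bundles actin in smooth muscle, read 7.52, 7.43 and 7.54 in si-FAM210B against 6.27, 6.23 and 6.44 in control. The rises were 1.32 ± 0.08 (adjusted p = 2.67e-05) and 1.18 ± 0.07 (adjusted p = 2.14e-05), and the lowest si-FAM210B array stood 1.08 and 0.99 above the highest control. ACTA2, smooth muscle actin, rose by 0.47 ± 0.05 (adjusted p = 0.00079), and TNS1, which links actin to integrins, by 0.71 ± 0.05 (adjusted p = 0.00012). Single arrays left out gave 8 to 24 rises, and leaving out both deviating arrays gave 33, with 0 to 2 and 2 falls. Of the 16 called members, 10 also differed from si-UQCRC2. In lists described below this count varied, from 5 of 5 in endoplasmic reticulum folding to 0 of 4 in replication-dependent histones. It was 4 of 13 in matrix glycoproteins, 2 of 10 in YAP and TEAD targets, 3 of 17 in replication and 2 of 12 in mitosis.

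DOCK2, an activator of Rac best known from blood cells, read 5.04, 5.29 and 5.14 in si-FAM210B against 4.33, 4.33 and 4.32 in control and rose by 0.83 ± 0.07 (adjusted p = 0.00017). Its 3 controls spread by 0.01, and the lowest si-FAM210B array lay 0.71 above the highest of them. COTL1, an actin-binding protein, read 10.55, 10.38 and 10.39 against 10.04, 9.98 and 10.16 and rose by 0.38 ± 0.07 (adjusted p = 0.0151), but was not called without control replicate 1 or 2 (adjusted p from 0.0699 to 0.0776). PLEK2, a membrane-bound organiser of actin, read 7.90, 7.96 and 7.93 against 6.97, 7.02 and 7.06 (rise 0.92 ± 0.05 (adjusted p = 1.82e-05)).

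Among genes of the extracellular matrix, 13 of 52 glycoproteins and proteoglycans rose (8 to 16 with single arrays left out, 21 without both deviating arrays) and none fell, with 1 negative at an unadjusted p under 0.05. SPARC, a collagen-binding protein, read 7.71, 7.75 and 7.79 in si-FAM210B against 6.69, 6.73 and 6.76 in control. It rose by 1.03 ± 0.06 (adjusted p = 1.82e-05), and its arrays spread by 0.08 in si-FAM210B and 0.07 in control. NID1 of basement membranes rose by 0.62 ± 0.06 (adjusted p = 0.000432) and the proteoglycan SPOCK1 by 0.67 ± 0.06 (adjusted p = 0.000452). FN1, fibronectin, read 8.90, 9.24 and 9.30 against 8.70, 8.64 and 8.61 and rose by 0.50 ± 0.10 (adjusted p = 0.0169). It was not called without si-FAM210B replicate 3 or control replicate 1 or 2 (adjusted p from 0.0567 to 0.0732), and its change was 0.60 (adjusted p = 0.000638) without both deviating arrays. Of 41 collagens and their enzymes 7 rose (3 to 9 with single arrays left out, 17 without both deviating arrays) and none was called lower, with 3 negative at an unadjusted p under 0.05 and 2 called lower without both deviating arrays. COL12A1 rose by 0.50 ± 0.07 (adjusted p = 0.00291) and P4HA3, which hydroxylates collagen prolines, by 0.49 ± 0.06 (adjusted p = 0.0014).

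Integrins, the receptors for this matrix, split. ITGA11, the alpha subunit of a collagen receptor, read 6.71, 6.80 and 6.77 in si-FAM210B against 5.67, 5.76 and 5.80 in control and rose by 1.02 ± 0.06 (adjusted p = 1.82e-05). ITGA5, the alpha subunit of the fibronectin receptor, read 7.63, 7.76 and 7.74 against 7.29, 7.38 and 7.32 and rose by 0.38 ± 0.06 (adjusted p = 0.00584). ITGB5, a beta subunit that pairs with alpha V, read 8.07, 8.25 and 8.21 against 8.56, 8.69 and 8.57 and fell by 0.43 ± 0.07 (adjusted p = 0.00558). These were the 3 called of 19 integrins and laminins (rises and falls of 2 to 3 and 1 to 1 with single arrays left out, 6 and 3 without both deviating arrays). Among 35 proteases that cut or release matrix and their inhibitors, 10 rose and 1 fell (5 to 12 and 0 to 2 with single arrays left out, 17 and 5 without both deviating arrays). ADAM12, a membrane-bound metalloproteinase, read 6.21, 6.18 and 6.13 in si-FAM210B against 5.42, 5.48 and 5.44 in control and rose by 0.73 ± 0.05 (adjusted p = 6.16e-05). MMP2, a gelatinase, read 6.08, 6.18 and 6.26 against 5.43, 5.45 and 5.55 and rose by 0.70 ± 0.07 (adjusted p = 0.000452), and ADAM19 and ADAMTS12 rose by 0.54 and 0.44.

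CDH1, the E-cadherin of epithelial contacts, read 6.53, 6.59 and 6.63 in si-FAM210B against 7.67, 7.72 and 7.62 in control. The highest si-FAM210B array lay 0.99 below the lowest control, either group spread by 0.10, and CDH1 fell by 1.09 ± 0.06 (adjusted p = 1.82e-05), to 47% of control on the linear scale. VIM, vimentin, an intermediate filament of mesenchymal cells, read 10.45, 10.57 and 10.57 against 10.24, 10.20 and 10.20 and rose by 0.32 ± 0.05 (adjusted p = 0.00967), a call that was lost without control replicate 2 (adjusted p = 0.057). AXL, a receptor tyrosine kinase, read 10.72, 10.83 and 10.86 against 10.34, 10.36 and 10.39 and rose by 0.44 ± 0.06 (adjusted p = 0.00232). Over the 34 cadherins and regulators of epithelial-mesenchymal transition 4 rose and 3 fell (1 to 6 and 1 to 4 with single arrays left out, 8 and 4 without both deviating arrays). Of 42 genes of keratins, tight junctions and desmosomes none rose (5 positive at an unadjusted p under 0.05) and 2 fell (rises and falls of 0 to 1 and 0 to 4 with single arrays left out, 5 and 6 without both deviating arrays), KRT4 by 0.42 ± 0.09 (adjusted p = 0.0273) and PARD6B by 0.33 ± 0.07 (adjusted p = 0.0287). The share called in this list, 4.76%, was below the 6.28% of all genes tested, so nothing is read from this count. KRT4 was not called without si-FAM210B replicate 3, any 1 control array or si-UQCRC2 replicate 1 or 3 (adjusted p from 0.052 to 0.0906), nor PARD6B without si-FAM210B replicate 3, control replicate 1 or 2 or any 1 si-UQCRC2 array (adjusted p from 0.0567 to 0.121). PODXL, a sialomucin of the cell surface, read 8.86, 8.70 and 8.70 in si-FAM210B against 7.64, 7.65 and 7.72 in control and rose by 1.08 ± 0.06 (adjusted p = 1.82e-05), with replicate 1 the highest array.

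**Figure D3:**
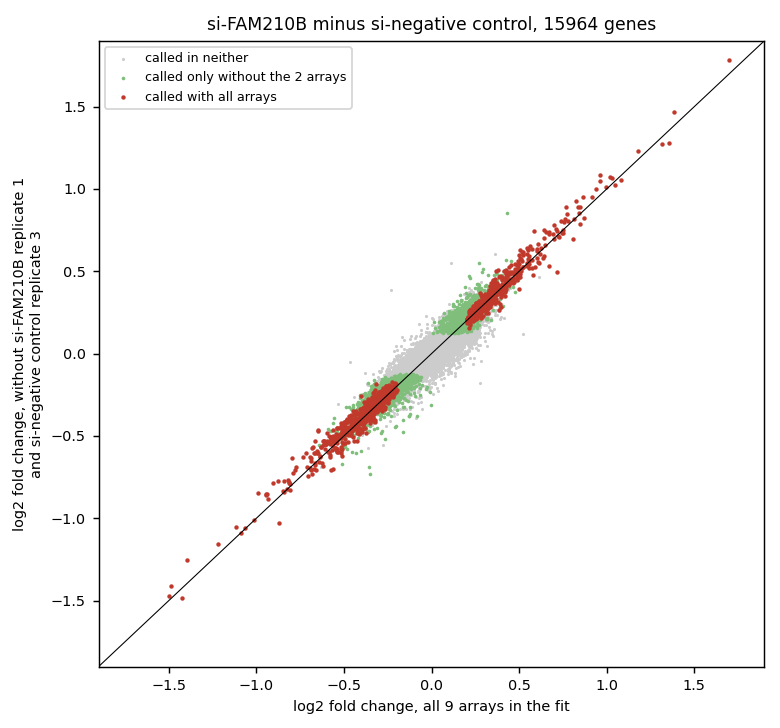
Log2 fold change in si-FAM210B against control of the 15964 genes tested, with all arrays (x axis) and without si-FAM210B replicate 1 and control replicate 3 (y axis), coloured by whether a gene was called with all arrays, called without the 2 arrays alone, or in neither. The points follow the diagonal line of equal change, with GREM1 at 1.70 and 1.78 and GPX2 at -1.50 and -1.47.

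Secreted growth factors and cytokines held further rises. STC1, stanniocalcin, a secreted glycoprotein, read 7.95, 8.17 and 8.20 in si-FAM210B against 6.76, 6.66 and 6.73 in control and rose by 1.39 ± 0.09 (adjusted p = 2.67e-05). IL11, a cytokine of the interleukin-6 family that TGF-beta induces, read 7.40, 7.38 and 7.23 in si-FAM210B against 6.54, 6.60 and 6.64 in control and rose by 0.74 ± 0.07 (adjusted p = 0.000325). CCL2, the chemokine that draws monocytes, read 9.75, 9.69 and 9.91 in si-FAM210B against 9.17, 8.98 and 9.12 in control and rose by 0.69 ± 0.07 (adjusted p = 0.00077). HBEGF, a ligand of the epidermal growth factor receptor, read 6.48, 6.46 and 6.45 against 5.87, 5.89 and 5.95 and rose by 0.56 ± 0.05 (adjusted p = 0.000452), with its 3 si-FAM210B arrays spread by 0.04. The chemokine CXCL16 read 6.79, 6.61 and 6.47 against 7.21, 7.28 and 7.11 and fell by 0.58 ± 0.08 (adjusted p = 0.0041). Of 50 chemokine, interleukin and NF-kappaB genes 7 rose and 2 fell (3 to 9 and 1 to 3 with single arrays left out, 17 and 5 without both deviating arrays). Of 36 targets of YAP and its partner TEAD 10 rose (5 to 13 with single arrays left out, 15 without both deviating arrays), and none fell, with 6 negative at an unadjusted p under 0.05 and 3 called lower without both deviating arrays. FJX1, a secreted kinase-like protein, rose by 0.60 ± 0.06 (adjusted p = 0.000719), and VGLL3, a TEAD cofactor, by 0.49 ± 0.06 (adjusted p = 0.00215).

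Among AP-1 and immediate early factors 5 of 35 rose and 2 fell (2 to 7 and 1 to 5 with single arrays left out, 10 and 5 without both deviating arrays). FOSL1, an AP-1 subunit, read 8.01, 7.82 and 7.84 against 7.21, 7.14 and 7.38 and rose by 0.65 ± 0.08 (adjusted p = 0.00244). ZFP36L1, which promotes decay of messenger RNA, rose by 0.48 ± 0.05 (adjusted p = 0.000711). JUNB rose by 0.64 ± 0.11 (adjusted p = 0.0115) and was not called without control replicate 1 or 2 (adjusted p from 0.0593 to 0.0613). The nuclear receptor NR4A2 read 5.37, 5.34 and 5.41 against 5.95, 5.96 and 5.82 and fell by 0.54 ± 0.06 (adjusted p = 0.0012). Of 43 Wnt pathway genes none rose (6 positive at an unadjusted p under 0.05) and 3 fell (rises and falls of 0 to 2 and 2 to 5 with single arrays left out, 3 and 8 without both deviating arrays). The share called, 6.98%, was near the 6.28% of all genes, and the median change was 0.06, so nothing is read from this count. The 3 that fell encode inhibitors of the pathway. DKK1, a secreted antagonist, read 8.49, 8.67 and 8.78 in si-FAM210B against 9.43, 9.28 and 9.32 in control and fell by 0.69 ± 0.08 (adjusted p = 0.00117). RNF43, a ligase that removes Wnt receptors, read 4.96, 5.01 and 4.96 against 5.49, 5.54 and 5.53 and fell by 0.54 ± 0.05 (adjusted p = 0.000457). KREMEN1, a receptor of DKK1, fell by 0.29 ± 0.07 (adjusted p = 0.0372) and was not called without si-FAM210B replicate 1 or 3, control replicate 1 or 2 or any 1 si-UQCRC2 array (adjusted p from 0.0515 to 0.141).

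Genes of purine and adenosine handling, inside and outside the cell, held 6 rises and 2 falls of 44 (2 to 7 and 1 to 5 with single arrays left out, 10 and 7 without both deviating arrays). NT5E (CD73), which makes adenosine at the cell surface, read 7.50, 7.88 and 7.79 in si-FAM210B against 7.08, 6.98 and 6.78 in control and rose by 0.78 ± 0.11 (adjusted p = 0.00295). P2RY2, a receptor for extracellular ATP and UTP, read 6.87, 6.85 and 6.78 against 6.40, 6.44 and 6.39 and rose by 0.42 ± 0.05 (adjusted p = 0.00232). In both genes all si-FAM210B arrays lay above all controls. NT5C, a cytosolic nucleotidase, fell by 0.37 ± 0.06 (adjusted p = 0.00936).

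Metallothioneins, small proteins that bind zinc and copper, were among the largest rises. MT2A read 11.17, 10.87 and 10.81 in si-FAM210B against 9.56, 9.57 and 9.65 in control and rose by 1.36 ± 0.09 (adjusted p = 3.69e-05), or 2.56-fold. MT1H read 8.12, 7.66 and 7.57 in si-FAM210B against 6.87, 6.79 and 7.15 in control and rose by 0.85 ± 0.14 (adjusted p = 0.00834). MT1F rose by 0.81 ± 0.11 (adjusted p = 0.00244) and MT1X by 0.41 ± 0.07 (adjusted p = 0.00662). MT1G, a called member outside the naming rule and chosen after its values were seen, rose by 0.71 but was not called without control replicate 2 (adjusted p = 0.0604). In MT2A and MT1H replicate 1 was the highest array of si-FAM210B. These genes are near-identical copies, so probes may share signal between them. Of 35 metallothionein and zinc or copper transport genes 6 rose and none fell (4 to 6 and 0 to 2 with single arrays left out, 7 and 5 without both deviating arrays), with 4 negative at an unadjusted p under 0.05, and 5 of the 6 are metallothioneins. The pseudogenes MT1CP and MT1JP rose too, by 1.05 ± 0.08 (adjusted p = 0.00017) and 0.67 ± 0.11 (adjusted p = 0.00839).

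The transcription factor MTF-1 binds metallothionein promoters at metal response elements, whose core reads TGCACNC or TGCGCNC. To show how dense these cores are in the family member that rose the most, the 250 bases before the MT2A start are printed, from RefSeq on GRCh38.p14 (chr16:56608334-56608583, plus strand), with each match on either strand in capitals.
MT2A: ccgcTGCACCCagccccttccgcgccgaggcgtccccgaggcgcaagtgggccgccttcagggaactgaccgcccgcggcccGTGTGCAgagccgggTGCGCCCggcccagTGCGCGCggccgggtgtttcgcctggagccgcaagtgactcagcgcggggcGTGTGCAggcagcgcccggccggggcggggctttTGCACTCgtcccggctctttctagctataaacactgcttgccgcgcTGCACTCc
This window holds 7 matches. Of all 27305 promoter windows of that length 24.7% hold at least 1. Of the 5 metallothioneins that rose, 3 had a window in the table and all 3 held at least 1. Among the 20 genes with the largest rises 15 had a window and 4 held the core, and among the 20 with the largest falls it was 2 of 14. A match is a description of letters only.

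GPX2, a glutathione peroxidase and known target of NRF2, had the largest fall of all. It read 6.83, 6.88 and 6.94 in si-FAM210B against 8.39, 8.37 and 8.37 in control. The highest si-FAM210B array lay 1.43 below the lowest control, the groups spread by 0.10 and 0.03, and the fall was 1.50 ± 0.07 (adjusted p = 1.82e-05), to 35.5% of control on the linear scale. GCLC, the catalytic subunit of the first enzyme of glutathione synthesis, read 7.13, 7.45 and 7.43 in si-FAM210B against 8.10, 8.07 and 7.89 in control and fell by 0.69 ± 0.09 (adjusted p = 0.00291). HMOX1, which degrades heme and is also an NRF2 target, read 8.29, 8.18 and 8.24 in si-FAM210B against 7.76, 7.83 and 7.84 in control and went the other way, rising by 0.42 ± 0.05 (adjusted p = 0.00231). The epoxide hydrolase EPHX1 fell by 0.30 ± 0.06 (adjusted p = 0.0147) and was not called without si-FAM210B replicate 3 or control replicate 1 (adjusted p from 0.0542 to 0.0683). Of 55 NRF2 targets and glutathione genes 1 rose and 4 fell, and 1 to 2 and 2 to 5 with single arrays left out and 4 and 12 without both deviating arrays, with a median of -0.12 over all arrays. The median was -0.08 without both deviating arrays. Most members of this list did not pass the test. A list of A549 identity genes, the 13 above with UCHL1, overlaps this list, and 4 of 14 fell (2 to 5 with single arrays left out, 5 without both deviating arrays), GPX2, ALDH3A1 and the aldo-keto reductases AKR1C1 and AKR1C2, with no rise called and 1 positive at an unadjusted p under 0.05. AKR1C2 fell by 0.40 ± 0.09 (adjusted p = 0.0306) and was not called without control replicate 1 or 2 or any 1 si-UQCRC2 array (adjusted p from 0.0565 to 0.133). AKR1C1 fell by 0.36 ± 0.09 (adjusted p = 0.0423) and was not called without any 1 control array or any 1 si-UQCRC2 array (adjusted p from 0.0518 to 0.173). Aldo-keto reductases of this family are close copies, so their rows may share signal.

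NRF2 binds the antioxidant response element, whose core is TGACNNNGC. The 250 bases before the GPX2 start are printed because GPX2 fell the most, from RefSeq on GRCh38.p14 (chr14:64942746-64942995, minus strand), with the match on either strand in capitals.
GPX2: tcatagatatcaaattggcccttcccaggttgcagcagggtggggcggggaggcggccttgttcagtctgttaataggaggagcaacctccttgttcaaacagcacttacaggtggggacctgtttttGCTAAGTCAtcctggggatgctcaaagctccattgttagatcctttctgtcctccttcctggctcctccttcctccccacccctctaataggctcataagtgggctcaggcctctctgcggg
The window holds 1 match of the response element and none of the metal response core, and the MT2A window holds 1 match of the response element apart from its 7 metal response cores. At least 1 match of TGACNNNGC occurs in 3013 of the 27305 windows. Of the 4 NRF2 list members that fell, 3 had a window and GPX2 alone held the core.

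Enzymes that oxidise fatty acids, steroids and foreign compounds held more falls than rises, though most did not pass the test. Of 50 cytochrome P450, aldo-keto reductase, aldehyde dehydrogenase and transferase genes 1 rose and 10 fell (0 to 2 and 5 to 13 with single arrays left out, 2 and 17 without both deviating arrays). The fatty acid hydroxylase CYP4F11 read 7.27, 7.43 and 7.37 in si-FAM210B against 8.49, 8.44 and 8.35 in control and fell by 1.07 ± 0.06 (adjusted p = 2.14e-05). Its neighbour in the family CYP4F3, which inactivates leukotriene B4, read 6.48, 6.35 and 6.39 against 7.05, 7.07 and 7.23 and fell by 0.71 ± 0.06 (adjusted p = 0.000356). Whether the rows of these neighbours share signal was not tested. SULT2B1, which sulfates cholesterol and steroids, read 6.85, 6.73 and 6.78 against 7.40, 7.47 and 7.48 and fell by 0.66 ± 0.06 (adjusted p = 0.000356), and ALDH3A1, an aldehyde dehydrogenase, by 0.46 ± 0.06 (adjusted p = 0.00277). PON3, a lactonase, read 5.67, 6.16 and 6.12 in si-FAM210B against 7.03, 6.96 and 6.78 in control. HGD, an enzyme of tyrosine breakdown, read 4.87, 5.23 and 5.29 against 6.12, 6.11 and 5.99, and CPS1, the mitochondrial enzyme that starts the urea cycle, read 6.06, 6.46 and 6.50 against 7.39, 7.33 and 7.09. These 3 fell by 0.94, 0.94 and 0.93, each with replicate 1 lowest and with no overlap. AOX1, an aldehyde oxidase, read 4.93, 5.17 and 5.16 in si-FAM210B against 4.24, 4.19 and 4.23 in control and rose by 0.87 ± 0.07 (adjusted p = 0.000211). Each control value lay under the limit of 4.25. AOX1 was thus a member only through the arrays in which it was higher, and nothing is read from its call.

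In lipid metabolism the falls began with PLA2G4A, the phospholipase that frees arachidonic acid, which read 4.74, 5.39 and 5.22 in si-FAM210B against 6.44, 6.27 and 5.99 in control and fell by 1.12 ± 0.16 (adjusted p = 0.00426). PTGS2 (COX-2), which converts that acid to prostaglandins, read 5.06, 5.64 and 5.72 against 6.48, 6.46 and 6.19 and fell by 0.90 ± 0.15 (adjusted p = 0.00968). ALOX5AP, which presents it to 5-lipoxygenase, read 5.62, 5.28 and 5.44 against 4.91, 4.86 and 4.83 and rose by 0.58 ± 0.09 (adjusted p = 0.0053). Of 37 eicosanoid genes 1 rose and 5 fell (1 to 1 and 1 to 6 with single arrays left out, 3 and 7 without both deviating arrays). SGPP1, which removes the phosphate of sphingosine 1-phosphate, read 5.75, 6.44 and 6.37 in si-FAM210B against 7.29, 7.20 and 7.03 in control and fell by 0.99 ± 0.15 (adjusted p = 0.00604). SCD, which makes monounsaturated fatty acids, read 9.32, 9.73 and 9.82 in si-FAM210B against 10.38, 10.43 and 10.26 in control and fell by 0.73 ± 0.12 (adjusted p = 0.00763). Of 54 genes of cholesterol and fatty acid synthesis none rose (3 positive at an unadjusted p under 0.05) and 5 fell (rises and falls of 0 to 1 and 1 to 8 with single arrays left out, 2 and 19 without both deviating arrays). SLC27A2, an acyl-CoA synthetase of fatty acid uptake, fell by 0.79 ± 0.20 (adjusted p = 0.0468) and was not called without control replicate 1 or 2 or any 1 si-UQCRC2 array (adjusted p from 0.0842 to 0.183).

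PDK4, a kinase of mitochondria that shuts pyruvate dehydrogenase and spares glucose, read 4.64, 4.65 and 4.75 in si-FAM210B against 6.23, 6.13 and 5.95 in control. The 3 si-FAM210B arrays spread by 0.11 and the highest lay 1.20 below the lowest control, and PDK4 fell by 1.43 ± 0.09 (adjusted p = 2.86e-05), to 37.2% of control on the linear scale. PDP1, the phosphatase that reverses this step, read 6.10, 6.23 and 6.21 in si-FAM210B against 5.77, 5.78 and 5.79 in control and rose by 0.40 ± 0.05 (adjusted p = 0.00297). ME3, a mitochondrial malic enzyme, rose by 0.46 ± 0.05 (adjusted p = 0.00123). IDH1, the cytosolic isocitrate dehydrogenase, fell by 0.45 ± 0.08 (adjusted p = 0.0147) and was not called without control replicate 1 or 2 (adjusted p from 0.0636 to 0.0747). Of 43 genes of pyruvate dehydrogenase and the citric acid cycle 2 rose and 5 fell (2 to 3 and 1 to 6 with single arrays left out, 4 and 9 without both deviating arrays). SLC2A3, the glucose transporter GLUT3, read 6.29, 6.67 and 6.63 in si-FAM210B against 7.45, 7.39 and 7.39 in control and fell by 0.88 ± 0.09 (adjusted p = 0.000711). HILPDA, a lipid droplet protein induced by hypoxia, fell by 0.64 ± 0.07 (adjusted p = 0.000716), and the carbonic anhydrase CA12 by 0.50 ± 0.07 (adjusted p = 0.00407). They were among 4 falls of 55 genes of glycolysis and hypoxia (rises and falls of 0 to 1 and 3 to 7 with single arrays left out, 6 and 11 without both deviating arrays), with no rise called and 4 positive at an unadjusted p under 0.05. The share called in this list, 7.27%, was near the 6.28% of all genes, so nothing is read from this count.

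The lists of mitochondrial genes held shares of calls on both sides of the 6.28% of all genes. Of 70 nuclear-encoded respiratory chain subunits only SDHD, an anchor subunit of succinate dehydrogenase, was called, with a fall of 0.36 ± 0.07 (adjusted p = 0.0209), and it lost the call without si-FAM210B replicate 3 or control replicate 1 or 2 (adjusted p from 0.0625 to 0.0939). The falls numbered 1 of 56 assembly factors, 3 of 84 genes of mitochondrial translation and 5 of 53 of import and folding, with no rise called in any of them. At an unadjusted p under 0.05, 6, 3, 0 and 3 members of these 4 lists were higher. Without both deviating arrays 9 rose and 7 fell, 2 rose and 10 fell, 1 rose and 13 fell, and 3 rose and 14 fell, in the same order. Single arrays left out gave falls of 0 to 3, 0 to 3, 0 to 8 and 0 to 10. The shares called were 1.43%, 1.79%, 3.57% and 9.43%. Of 42 carriers 1 rose and 3 fell, 9.52% in all (0 to 1 and 2 to 7 with single arrays left out, 1 and 12 without both deviating arrays). UCP2, an uncoupling protein that exports metabolites, read 7.61, 7.52 and 7.45 in si-FAM210B against 8.06, 8.16 and 8.10 in control and fell by 0.58 ± 0.07 (adjusted p = 0.00103), and SLC25A35 fell by 0.46 ± 0.06 (adjusted p = 0.00323). OPTN, an adaptor that marks mitochondria for autophagy, rose by 0.34 ± 0.05 (adjusted p = 0.00641).

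In heme synthesis and iron handling, the setting in which FAM210B is known from mouse erythroid cells, 2 of 48 genes rose and 4 fell, against 6.28% called of all genes. SLC25A37, mitoferrin-1, the iron importer of mitochondria, read 7.29, 7.51 and 7.49 in si-FAM210B against 7.10, 7.15 and 7.04 in control and rose by 0.34 ± 0.07 (adjusted p = 0.0217). It was not called without si-FAM210B replicate 3, control replicate 1 or 2 or si-UQCRC2 replicate 2 or 3 (adjusted p from 0.0501 to 0.0872). STEAP1, of a family of metal reductases, read 5.55, 5.96 and 5.62 in si-FAM210B against 6.61, 6.36 and 6.25 in control and fell by 0.70 ± 0.12 (adjusted p = 0.00929). STEAP2 and SLC11A2, the iron transporter DMT1, fell by 0.51 and 0.42. STEAP2 was not called without control replicate 1 or 2 (adjusted p from 0.0931 to 0.0951), nor SLC11A2 without control replicate 1 or 2 (adjusted p from 0.0678 to 0.0754). With single arrays left out the rises numbered 1 to 3 and the falls 1 to 6, and without both deviating arrays they were 4 and 10.

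Genes of the cell cycle that were called fell, and the number called depended on the arrays. Of 67 replication and S phase genes 17 fell, with a median of -0.26. Of 95 mitosis genes 12 fell, with a median of -0.20. No member of either list rose, with 0 and 0 positive at an unadjusted p under 0.05. Without both deviating arrays 43 and 46 fell, but the medians were smaller in size, -0.21 and -0.17. Single arrays left out gave 0 to 28 and 1 to 32, with the fewest in each list without control replicate 2. AURKA, a kinase of the mitotic spindle, read 8.52, 8.65 and 8.63 in si-FAM210B against 9.06, 9.09 and 9.04 in control and fell by 0.46 ± 0.06 (adjusted p = 0.00159). ORC1, part of the complex that marks replication origins, read 6.71, 7.04 and 6.99 in si-FAM210B against 7.51, 7.46 and 7.27 in control, with replicate 1 lowest and control replicate 3 the lowest control. It fell by 0.50 ± 0.10 (adjusted p = 0.0156) and was not called without control replicate 1 or 2 (adjusted p from 0.0765 to 0.0814). TOB1, which restrains proliferation, read 7.37, 7.50 and 7.66 in si-FAM210B against 8.42, 8.32 and 8.20 in control and also fell, by 0.81 ± 0.08 (adjusted p = 0.000687), as did CCND3, a D-type cyclin, by 0.44 ± 0.06 (adjusted p = 0.00324). Of 44 cyclins, cyclin kinases and their inhibitors none rose (6 positive at an unadjusted p under 0.05) and 4 fell (rises and falls of 0 to 0 and 2 to 6 with single arrays left out, 3 and 14 without both deviating arrays), with a median of -0.003 and 22 members on either side of 0. Of 61 DNA repair genes 7 fell and 1 rose (0 to 14 and 0 to 1 with single arrays left out, 23 and 2 without both deviating arrays), and no fall was called without control replicate 1 or 2. Of 22 replication-dependent histones 4 fell (1 to 6 with single arrays left out, 9 without both deviating arrays), H2BC10 by 0.71 ± 0.11 (adjusted p = 0.00482). Whether histone rows share signal was not tested.

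**Figure D4:**
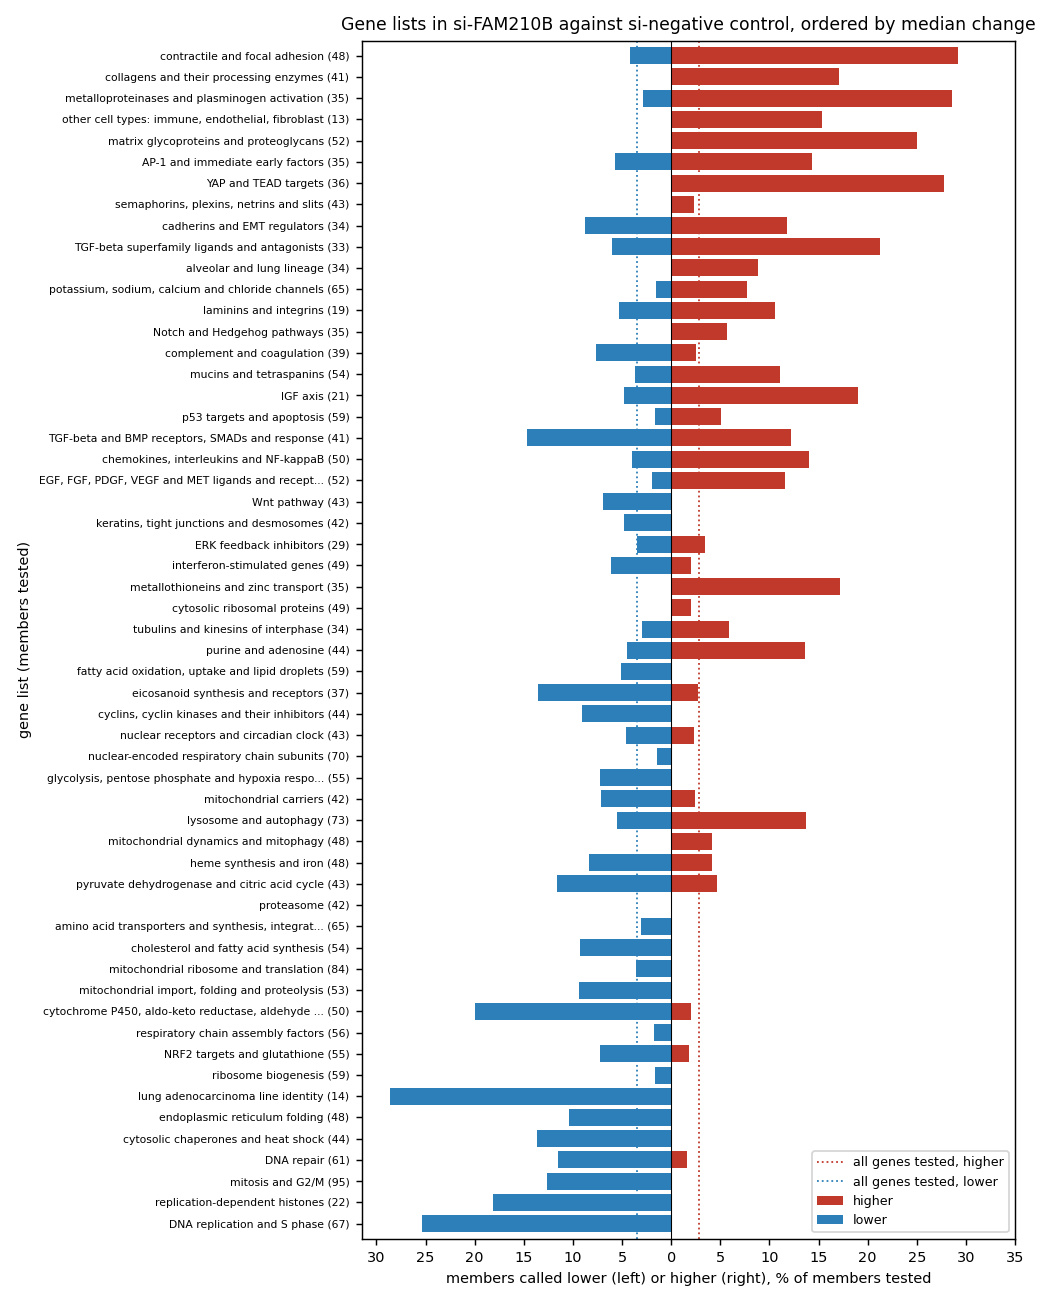
Members called higher (right of 0) and lower (left of 0) in si-FAM210B against control, in percent of the members tested (x axis), for 56 of the 57 gene lists (y axis, with the number tested), ordered by median change, with dotted lines at the 2.78% and 3.5% of all genes tested. The contractile list stands at the top with 14 higher and 2 lower of 48, and the replication list at the bottom with 17 lower of 67.

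Protein folding genes fell where they were called. Of 44 cytosolic chaperones 6 fell and of 48 folding genes of the endoplasmic reticulum 5 fell, with medians of -0.16 and -0.14 and no rise called (2 and 1 positive at an unadjusted p under 0.05). The falls numbered 2 to 10 and 1 to 9 with single arrays left out and 17 and 14 without both deviating arrays. Without both deviating arrays the medians were smaller in size, -0.12 and -0.09. HSPA2, an HSP70 family chaperone, read 8.48, 8.45 and 8.47 in si-FAM210B against 8.91, 8.92 and 9.03 in control and fell by 0.48 ± 0.06 (adjusted p = 0.00144). HSPA1A, the heat-inducible HSP70, read 8.67, 8.59 and 8.49 against 8.96, 8.97 and 9.16 and fell by 0.45 ± 0.07 (adjusted p = 0.00703). HSPA1A has a near-identical copy, so its signal may be shared. EDEM2, which trims the sugars of misfolded glycoproteins, read 7.31, 7.57 and 7.53 against 8.15, 8.14 and 8.08 and fell by 0.66 ± 0.07 (adjusted p = 0.000896). The lysosome and autophagy list held 10 rises and 4 falls of 73 (3 to 12 and 0 to 7 with single arrays left out, 15 and 14 without both deviating arrays). Its median was -0.05, with 44 members negative, and 12 were higher and 15 lower at an unadjusted p under 0.05. CD68, a lysosomal membrane protein that also serves as a macrophage marker, read 8.69, 8.54 and 8.54 in si-FAM210B against 7.82, 7.87 and 7.98 in control and rose by 0.70 ± 0.06 (adjusted p = 0.000428). MAP1LC3B, which coats autophagosomes, rose by 0.34 ± 0.05 (adjusted p = 0.00613) and ATP6V0D1, a subunit of the proton pump, by 0.37 ± 0.06 (adjusted p = 0.0053). The lysosomal thiol reductase IFI30 read 7.03, 7.21 and 7.17 in si-FAM210B against 8.30, 8.38 and 8.37 in control and fell by 1.22 ± 0.07 (adjusted p = 1.82e-05).

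Other genes among the largest changes belong to no single process. NAV2 and NAV3, microtubule-associated proteins of the neuron navigator family, read 7.71, 7.84 and 7.84 against 6.81, 6.87 and 6.89 and 6.59, 7.14 and 7.08 against 6.01, 6.04 and 5.87, and rose by 0.94 and 0.96. EFR3B, which anchors a lipid kinase at the plasma membrane, read 8.09, 8.14 and 8.13 in si-FAM210B against 7.06, 7.20 and 7.12 in control, with the lowest si-FAM210B array 0.89 above the highest control (adjusted p = 1.82e-05). DIO2, which activates thyroid hormone, read 5.70, 6.38 and 6.15 against 5.29, 5.40 and 5.07 and rose by 0.82 ± 0.15 (adjusted p = 0.0131). GLIPR1 rose by 0.96 ± 0.15 (adjusted p = 0.00707), the ubiquitin ligase MARCHF4 by 0.84 ± 0.08 (adjusted p = 0.000444) and KIAA1549L by 0.84 ± 0.06 (adjusted p = 0.00012). TM4SF20, a membrane protein with 4 spans, read 4.38, 4.93 and 5.10 in si-FAM210B against 6.56, 6.28 and 6.03 in control, and the groups spread by 0.72 and 0.54 without overlap. It fell by 1.49 ± 0.20 (adjusted p = 0.003). SUSD2, a surface protein of lung epithelium, read 7.34, 7.19 and 7.28 against 8.18, 8.31 and 8.36 and fell by 1.01 ± 0.07 (adjusted p = 3.59e-05). NTRK3, the neurotrophin-3 receptor, fell by 0.94 ± 0.07 (adjusted p = 0.00012), MTUS1, a microtubule-associated protein, by 0.85 ± 0.08 (adjusted p = 0.000356), and SAT1, which acetylates polyamines for breakdown, by 0.84 ± 0.12 (adjusted p = 0.0042). The plasma proteins FGA, a fibrinogen chain, and C5 of complement fell by 0.84 ± 0.10 (adjusted p = 0.00147) and 0.82 ± 0.11 (adjusted p = 0.00331).

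Among noncoding RNAs, 17 of 834 long noncoding RNAs (2.04%), 16 of 408 microRNA rows (3.92%) and 15 of 482 transcribed pseudogenes (3.11%) were called, beside 935 of 13445 protein-coding genes (6.95%). These shares were not tested against each other. LINC00941, a long noncoding RNA, read 6.84, 7.10 and 6.95 in si-FAM210B against 6.43, 6.37 and 6.44 in control and rose by 0.55 ± 0.07 (adjusted p = 0.00249). The row of MIR548W, which lies within HS3ST4, read 4.66, 5.02 and 4.53 in si-FAM210B against 6.12, 5.49 and 5.21 in control. It fell by 0.87 ± 0.22 (adjusted p = 0.0488), but the lowest control and the highest si-FAM210B array were 0.19 apart, and it was not called without si-FAM210B replicate 1 or 3, control replicate 1 or 2 or any 1 si-UQCRC2 array (adjusted p from 0.0649 to 0.15). The row of MIR3189 read 5.18, 5.23 and 5.64 in si-FAM210B against 5.91, 5.90 and 6.19 in control and fell by 0.65 ± 0.13 (adjusted p = 0.0169), without a call when control replicate 1 (adjusted p = 0.0519) was left out. MIR3189 lies within GDF15, whose own row fell by 0.62, and signal of the host transcript and of the hairpin cannot be told apart here. Array rows of this kind read the hairpin or its host, so they do not measure the mature microRNA.
The mature forms from RefSeq (GRCh38.p14) are printed to show that the 2 hairpins share no seed. Bases 2 to 8, the seed, are in capitals, at chr16:26025246-26025268, chr19:18386570-18386594 and chr19:18386607-18386627, all on the plus strand.
hsa-miR-548w: aAAAGUAAcugcgguuuuugccu
hsa-miR-3189-5p: uGCCCCAUcugugcccuggguagga
hsa-miR-3189-3p: cCCUUGGGucugaugggguag
MIR548W belongs to a large family, and after its value was seen the 23 tested rows of that family were counted. None was called higher and 4, MIR548W among them, were called lower, with a median change of -0.28. The median over all 408 microRNA rows was 0.13. Whether rows of the family share signal was not tested.

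The si-UQCRC2 arrays were compared with the same 3 controls, so the 2 comparisons are not independent. UQCRC2 itself read 8.34, 8.37 and 8.37 in si-UQCRC2, a change of -1.47 ± 0.14 from control (adjusted p = 0.000375). In si-UQCRC2 712 genes (4.46%) were called against control, 482 (3.02%) higher and 230 (1.44%) lower. The difference between the siRNAs was tested directly. Of the 444 higher genes 164, and of the 558 lower genes 307, also differed from si-UQCRC2 in the same direction at an adjusted p under 0.05, where 9.78% of all genes differed. Both comparisons use the same si-FAM210B arrays, so nothing is read from these shares. Among the 20 largest falls 19 differed, HGD being the exception, and among the 20 largest rises 13 did. GPX2 read 8.28, 8.45 and 8.53 in si-UQCRC2 and differed by -1.54 (adjusted p = 4.73e-06). PDK4 read 6.05, 6.24 and 6.34 and differed by -1.53 (adjusted p = 2.44e-05), IFI30 by -1.51 (adjusted p = 4.73e-06) and CDH1 by -0.96 (adjusted p = 2.44e-05). C5 read 7.30, 7.23 and 7.30, above control by 0.78 (adjusted p = 0.00432), and differed from si-FAM210B by -1.60 (adjusted p = 5.99e-05). ITGA11 read 5.81, 5.84 and 5.88 and differed by 0.92 (adjusted p = 2.87e-05), ADAM12 by 0.85 (adjusted p = 2.44e-05) and HMOX1 by 0.88 (adjusted p = 2.71e-05).

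Of the 20 largest rises, 16 were also called higher than control in si-UQCRC2. Of the 20 largest falls, 3 were called lower than control in si-UQCRC2 and 2 (IFI30 and C5) higher. Some of the largest rises were called after both siRNAs with no called difference between them. PLEK2 read 7.95, 7.91 and 7.90 in si-UQCRC2, NAV3 read 7.02, 6.94 and 6.83, MT2A read 10.75, 10.70 and 10.83 and STC1 read 8.10, 7.83 and 7.98. Their differences between the siRNAs were 0.01 (adjusted p = 0.882), 0.01 (adjusted p = 0.976), 0.19 (adjusted p = 0.185) and 0.14 (adjusted p = 0.29), which do not show that they were equal. GREM1 rose in both and stood higher in si-FAM210B by 0.62 (adjusted p = 0.00727), TGFB1I1 by 0.75 (adjusted p = 0.000787) and TAGLN by 0.50 (adjusted p = 0.00261). NT5E, IGFBP7 and MT1X read higher in si-UQCRC2 than in si-FAM210B, with differences of -0.36 (adjusted p = 0.0599), -0.50 (adjusted p = 0.00605) and -0.35 (adjusted p = 0.0107). DIO2 read 4.68, 4.76 and 4.78 in si-UQCRC2, below its controls, and differed by 1.34 (adjusted p = 0.000905).

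**Figure D5:**
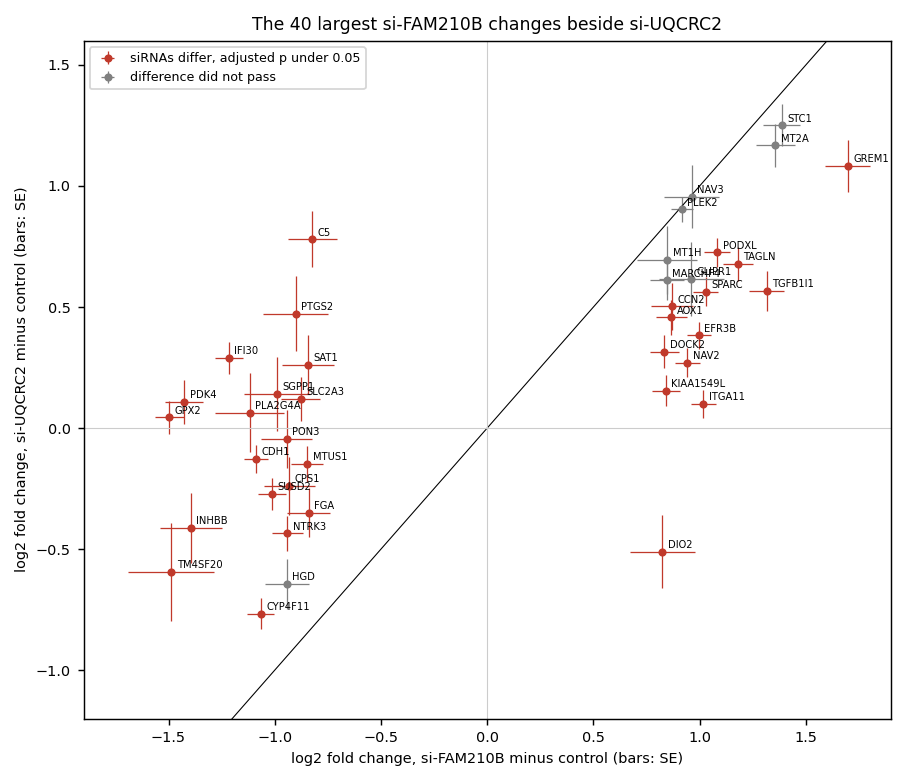
Log2 fold change against the shared controls in si-FAM210B (x axis) and si-UQCRC2 (y axis) for the 20 largest rises and 20 largest falls in si-FAM210B, with bars of 1 SE, a diagonal line of equal change, and grey points where the difference between the siRNAs did not pass. GPX2 (-1.50 and 0.04) and PDK4 (-1.43 and 0.11) lie near the horizontal zero line, while MT2A (1.36 and 1.17) and PLEK2 (0.92 and 0.90) lie near the diagonal.

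Within the called genes the 2 deviating arrays stood unequally. Among the 558 lower genes si-FAM210B replicate 1 was the lowest of its group in 407 and the highest in 76, and control replicate 3 was the lowest control in 400 and the highest in 76. Among the 444 higher genes replicate 1 was lowest in 190 and highest in 176, and control replicate 3 was the highest control in 226 and the lowest in 114. SLC2A3, PLA2G4A and SGPP1 are examples of the first kind, with replicate 1 below its nearest partner by 0.34, 0.47 and 0.61. CYP4F3, SMAD6 and TNS1 are genes in which the 3 arrays of a group lay close and the call did not rest on these arrays, with changes of -0.69 (adjusted p = 0.000113), -0.60 (adjusted p = 0.000282) and 0.76 (adjusted p = 0.000113) without them.

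In all, 294 of the 2511 distinct list members tested were called, and 45 of 57 lists held a larger share of calls than the 6.28% of all genes. The share over protein-coding genes was 6.95%. The lists were chosen with earlier results of these data known, so nothing is read from the 45. In each of the 57 the fewest calls, alone or tied, came without control replicate 1 or 2. Interferon-stimulated genes held 1 rise and 3 falls of 49 (1 to 2 and 2 to 4 with single arrays left out, 3 and 5 without both deviating arrays), with IFI16, a DNA sensor, higher by 0.52 ± 0.07 (adjusted p = 0.0036) and OAS1, an antiviral synthetase, lower by 0.44 ± 0.07 (adjusted p = 0.00827). Complement and coagulation genes held 1 rise and 3 falls of 39 (0 to 4 and 2 to 5 with single arrays left out, 5 and 8 without both deviating arrays). Genes of p53 and apoptosis held 3 and 1 of 59 (1 to 11 and 0 to 2 with single arrays left out, 17 and 9 without both deviating arrays), and ion channels 5 and 1 of 65 (1 to 7 and 0 to 3 with single arrays left out, 14 and 7 without both deviating arrays). The shares called were 8.16% (interferon), 10.3% (complement), 6.78% (p53) and 9.23% (channels), and nothing is read from these counts. TP53I3, a p53 target, rose by 0.55 ± 0.08 (adjusted p = 0.00389) and the potassium channel KCNQ3 by 0.42 ± 0.07 (adjusted p = 0.00721). Alveolar and lung lineage genes held 3 rises of 34 (1 to 5 with single arrays left out, 4 without both deviating arrays), among them ABCA3, the lipid transporter of surfactant, with 0.40 ± 0.06 (adjusted p = 0.00653). Mucins and tetraspanins held 6 rises and 2 falls of 54 (3 to 8 and 1 to 4 with single arrays left out, 11 and 4 without both deviating arrays). VDR, the vitamin D receptor, rose by 0.56 ± 0.08 (adjusted p = 0.00352) and the coactivator NCOA7 fell by 0.52 ± 0.08 (adjusted p = 0.00425). THY1, a surface protein of fibroblasts, read 6.82, 6.60 and 6.62 against 6.07, 6.11 and 6.19 and rose by 0.56 ± 0.07 (adjusted p = 0.00237).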

How the data were processed

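A549 RNA was hybridised as biotin-labelled cDNA, per the labels' protocols. The deposited values are log2 signals that the authors computed by RMA (named, without version, in the submitters' processing notes). RMA subtracts background, equalises probe distributions and combines probes, and it can compress small differences. The genome build of the rows is not given in the sources used here. Rows were named from GEO's platform annotation, updated with RefSeq records of GRCh38.p14: 23781 rows had 1 symbol (21497 matched by identifier, 1974 by symbol, 306 by synonym, 4 kept), 1543 several and 42204 none. Of 22411 genes 528 had several rows.

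Groups come from the sample titles. All 9 arrays entered 1 fit of 3 group means in limma 3.58.1 (R 4.3.3; lmFit, eBayes), with p-values Benjamini-Hochberg adjusted over the 15964 genes and calls at adjusted p under 0.05. The step was tested on simulated data with known changes. Each simulated gene had the same spread in all 9 arrays, so the test does not cover the unequal spread of these groups. Array medians ran from 4.20 to 4.40, and the number of arrays limits the precision. Replicate numbers were checked and do not pair the arrays.

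The comparison and the 57 gene lists (3065 distinct symbols) were chosen with earlier results of these data known. Lists are described by counts and medians. The results of 1 list are not reported here. Named genes are FAM210B, FAM210A and UQCRC2, the 20 largest protein-coding and 5 largest other changes in each direction without overlap between groups, the 5 called genes of highest level in each direction, and up to 4 called members of each list with the smallest p. Alternatives were other filters, normalizations, row rules, fits and arrays left out. Promoter and microRNA sequences come from RefSeq tables on GRCh38.p14.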

Additional observations from a re-analysis of the deposited data

How the results depend on the processing

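With all arrays 1002 genes were called, 444 higher and 558 lower, among them 294 list members, and 114 of the named genes differed from si-UQCRC2. A fit with array weights gave 7018 calls (3905 higher, 3113 lower), 1256 list members, 154 named differences and a FAM210B change of -0.23 that passed the test. Leaving out both deviating arrays gave 3889 (1792 and 2097), 856 list members, 139 differences and -0.26 for FAM210B, which also passed. Median centring gave 559 (184 and 375) and 173 list members, and the fit of the 2 groups alone 227 (130 and 97) and 93. The fit with the replicate number as a block gave 409 (206 and 203), 138 list members, 87 differences and -0.17 for FAM210B. The numbers share no stated source, and the deviations of same-numbered si-FAM210B and control arrays correlated at -0.58, 0.51 and -0.39 across genes, so this block is no pairing of samples. Single arrays left out gave 306 to 1975 calls, 173 to 890 higher and 133 to 1085 lower, 109 to 438 list members, 72 to 123 named differences, and -0.28 to -0.0912 for FAM210B. The totals of the no filter (847), stricter filter (939), quantile (960), cyclic loess (1046), trended and robust (960), mean row (1000) and every row (1007) settings lay within 1.5 times the main count. No named gene changed sign under any alternative tried. Calls of named genes were lost for 105 in the 2-group fit, 69 after median centring, 68 with the block, 89 without control replicate 2 and 1 without both deviating arrays. Where a call was lost, the cause was not tested. The 3 arrays of a group limit what can be called, and levels near 4.25 lie close to the median of all rows.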
